A study of Mus musculus with 9 samples.

Results

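Cebpb, Fosl2, Rela and Bhlhe40 encode transcription factors that carry signals from outside the cell to its genes, and they are described here across 3 genotype comparisons in the embryonic mouse cortex. The 4 genes were picked by name from the authors' tables of differential expression, with their measured changes known, and they are 4 of 1030 different genes that the 3 tables list. RNA sequencing was done on polyadenylated RNA from cortices of 9 mouse embryos at embryonic day 12. Every embryo had 1 Cre allele at Emx1, a locus used by progenitors of the dorsal forebrain, where the cortex forms. The groups differed at Zbtb7a, which encodes a zinc finger transcription factor best known as a repressor, with 3 embryos of genotype Zbtb7a +/+ (WT), 3 of Zbtb7a fl/+ (cHet) and 3 of Zbtb7a fl/fl (cKO). Cells that never express Emx1 keep both alleles in every group, and each control embryo carries Cre as well. The cortices came from 2 litters, and which embryo belongs to which litter is not given. A gene is called listed if it has a row in a table, and all rows have an adjusted p under 0.05. Each value is a log2 fold change, with the group named first divided by the other, and comes with its deposited standard error (SE). Each group had 3 libraries. If 1 fit gave all 3 comparisons, as assumed below, each SE also draws on the group that is not compared. It is then not the spread of the compared groups alone. Zbtb7a itself is in none of the 3 tables, so its expression does not check the genotype labels. Levels in single libraries were not analysed here, so no spread between embryos is given and only changes, not levels, are reported.

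These genes answer to extracellular signals by different routes. C/EBP beta, the product of Cebpb, is a basic leucine zipper protein that is phosphorylated downstream of ERK kinases, and in cultured mouse cortical progenitors it is known to favour the making of neurons. Fosl2 encodes a Fos-related leucine zipper protein that pairs with Jun proteins to form AP-1. Rela encodes the main transactivating subunit of NF-kB, which IkB proteins hold in the cytoplasm until a signal has them degraded. Bhlhe40 encodes a basic helix-loop-helix repressor that binds E-boxes, responds to hypoxia and cytokines, and takes part in the circadian clock.

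All 4 genes were listed as higher in cHet than in cKO cortices, and none was listed in cHet against WT or in cKO against WT. That contrast chose the genes, so the values below describe them and are not a test. The authors listed 417 of 13375 genes as higher in cHet than in cKO, which is 3.12% of those tested, and 971 in either direction, which is 7.26%. Of the 417 higher genes, 320 were listed in neither comparison with WT, so this pattern is common and not particular to the 4 genes. In cHet against WT 1.6% of 15465 tested genes were listed, and in cKO against WT 0.0148% of 26976.

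For Cebpb the authors' deposited table gave a log2 fold change of 1.52 with an SE of 0.40 in cHet against cKO. This is a ratio of 2.87, with a 95% interval from 1.68 to 4.91. No other of the 417 higher genes had a larger fold change, but only 3 of them had a larger SE, and by the test statistic Cebpb ranked 52. The adjusted p of the authors' DESeq2 test was 0.0114 in the authors' deposited table. Its identifier is ENSMUSG00000056501, and it spans 167688915 to 167690418 on the plus strand of chromosome 2 (mm10). The gene is a single exon of 1504 bp with no intron. It was the shortest, by exonic length, of the 416 protein-coding genes listed as higher, whose median was 5575.5 bp. Its transcript had a GC content of 67.2%, the second highest of those genes, against a median of 53.4%. The minus-strand gene Tmem189 shares 312 bp of this exon, which is 20.7% of its length. Whether the authors counted reads by strand is not given in the sources used here, so reads there cannot be assigned to either gene. Tmem189 was listed in none of the 3 tables.

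For Fosl2 the same comparison in the authors' deposited table gave 1.26 on the log2 scale, with an SE of 0.29. The ratio was 2.39, with a 95% interval from 1.62 to 3.55. It ranked 5 of 417 by fold change and 14 by the test statistic. Its adjusted p in the authors' DESeq2 test, 0.00286 in the authors' deposited table, was the smallest of the 4 genes. Fosl2 (ENSMUSG00000029135) spans 32135801 to 32157842 on the plus strand of chromosome 5. Its 4 exons add up to 9680 bp, longer than in 89.7% of the higher protein-coding genes. No other annotated gene overlaps it.

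Bhlhe40 and Rela changed by less. Bhlhe40 had 0.72 (SE 0.21) in the authors' deposited table for cHet against cKO, a ratio of 1.65 with a 95% interval from 1.24 to 2.18. Its adjusted p in the authors' DESeq2 test was 0.0225 in the authors' deposited table, and it ranked 51 of 417 by fold change and 119 by the test statistic. Bhlhe40 (ENSMUSG00000030103) spans 108660629 to 108666925 on the plus strand of chromosome 6, with 5 exons. The antisense gene 0610040F04Rik shares 118 bp of its 4705 bp of exon, or 2.51%, and was in none of the tables.

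Rela had 0.70 (SE 0.19) in the authors' deposited table for cHet against cKO, a ratio of 1.63 with a 95% interval from 1.26 to 2.10. The adjusted p of the authors' DESeq2 test was 0.0130 in the authors' deposited table. It ranked 56 of 417 by fold change and 61 by the test statistic, ahead of Bhlhe40 because its SE was smaller. Rela (ENSMUSG00000024927) spans 5637483 to 5648130 on the plus strand of chromosome 19, and its merged exons cover 3072 bp. Its transcript had a GC content of 59.4%, against 53.1% for Fosl2 and 49.4% for Bhlhe40. No other annotated gene overlaps it. For Fosl2 and Rela, no transcript of another gene matched at 95% identity or more over 100 bp, and for Cebpb and Bhlhe40 the overlapping genes named above were the only ones that did.

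In order of fold change the genes ran Cebpb, Fosl2, Bhlhe40 and Rela. No neighbours in this order differed beyond their error. Cebpb exceeded Fosl2 by 0.26 on the log2 scale, with an approximate SE of the difference of 0.49, and Fosl2 exceeded Bhlhe40 by 0.54 with an SE of 0.36. Bhlhe40 and Rela differed by 0.016 with an SE of 0.28. These SEs take the genes as independent, although all were measured in the same libraries. The 95% intervals of all 6 pairs of genes overlapped. At an adjusted p under 0.01, which 0.366% of tested genes passed as higher in cHet than in cKO, Fosl2 was the only one of the 4 left. A log2 change of at least 1, found for 0.105% of tested genes as listed and higher, left Cebpb and Fosl2.

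**Figure D1:**
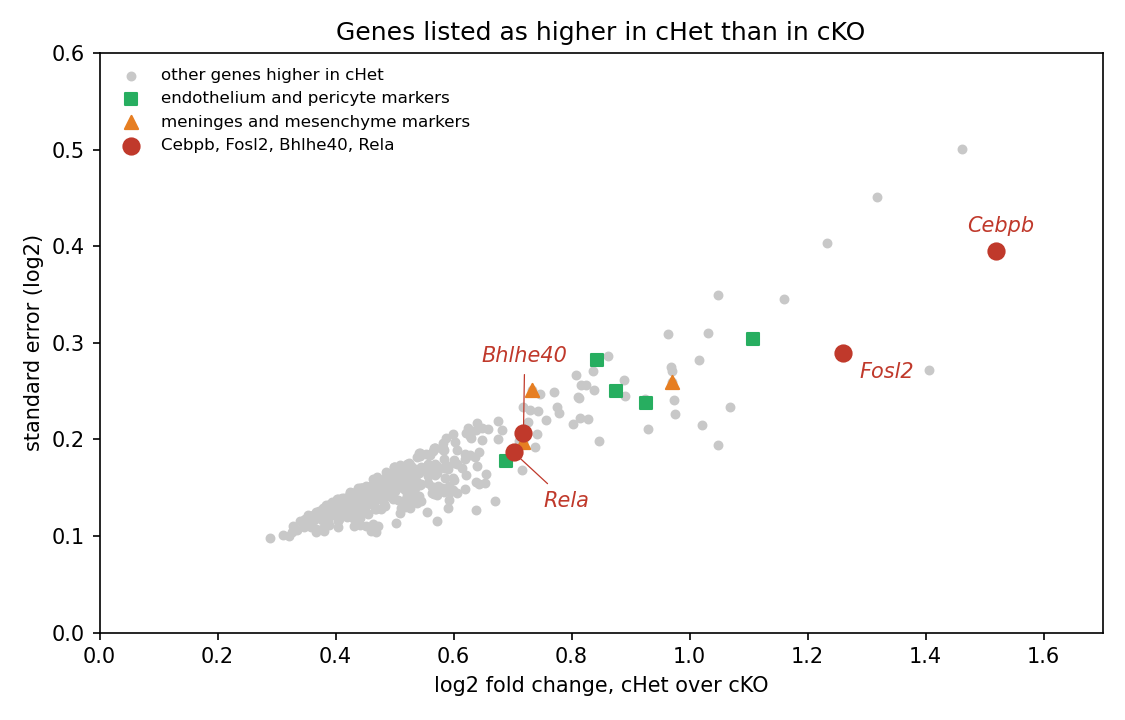
Each point is a gene listed as higher in cHet than in cKO, with its log2 fold change on the x axis and the standard error of that change (log2 scale) on the y axis. Cebpb lies farthest right at 1.52 with an SE of 0.40 and Fosl2 at 1.26 with 0.29, while Bhlhe40 and Rela, at 0.72 and 0.70, lie in the upper part of the main cloud. Markers of endothelium and pericytes (squares) and of meninges and mesenchyme (triangles) are the only other genes singled out. Some of them lie beside Bhlhe40 and Rela, as do grey points such as Spata5l1 and Pnpla2.

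Absence from the other 2 tables limits the values there without giving them. A gene that entered the authors' adjustment for cHet against WT would have been listed at an absolute statistic of 3.35, and for cKO against WT at 4.43. SEs hardly varied between tables. Over the 190 genes listed both in cHet against WT and in cHet against cKO, the ratio of the 2 SEs had a median of 0.999 and ran from 0.988 to 1.01. For cKO against WT only 3 genes could be compared with cHet against cKO in this way, with ratios from 0.988 to 0.9996. With the SE of Cebpb, a change of up to 1.32 in cHet against WT, or of up to 1.75 in cKO against WT, could have gone unlisted. In cKO against WT, even a change as large as the 1.52 listed between cHet and cKO would therefore have gone unlisted for Cebpb. The same held for Fosl2, Bhlhe40 and Rela, whose limits in cKO against WT were 1.28, 0.92 and 0.83. Their listed changes between cHet and cKO were smaller, at 1.26, 0.72 and 0.70.

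The 3 changes of a gene must also add up if they come from 1 fit, which narrows both ranges. None of the 190 genes had a pair of values whose difference should have been listed in cKO against WT and was not. The largest absolute statistic that such a difference implied was 1.63, far under the 4.43 needed. This check could therefore hardly fail, and that 1 fit gave all values remains an assumption. For Cebpb, the fitted change of cHet over WT then lies between -0.23 and 1.32, and that of cKO over WT between -1.75 and -0.20. For Fosl2 the ranges are -0.024 to 0.97 for cHet over WT and -1.28 to -0.29 for cKO over WT. The same arithmetic gives Bhlhe40 -0.20 to 0.69 for cHet over WT and -0.92 to -0.026 for cKO over WT. Rela has -0.12 to 0.62 for cHet over WT and -0.83 to -0.077 for cKO over WT. The cKO range lies under 0 wherever the statistic for cHet against cKO exceeds 3.35. That statistic comes from the contrast that chose the genes, so the sign of this range restates it and is no separate evidence on cKO against WT. These ranges bound fitted values and are not confidence intervals, and no difference from WT passed the authors' threshold for these genes. The cKO range also lay wholly under 0 for 98 of the 320 genes that were listed as higher in cHet than in cKO and in no other table, or 30.6%. A further 95 higher genes were listed in cHet against WT too, which none of the 4 was. The comparisons share libraries, so their values are not independent of each other.

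**Figure D2:**
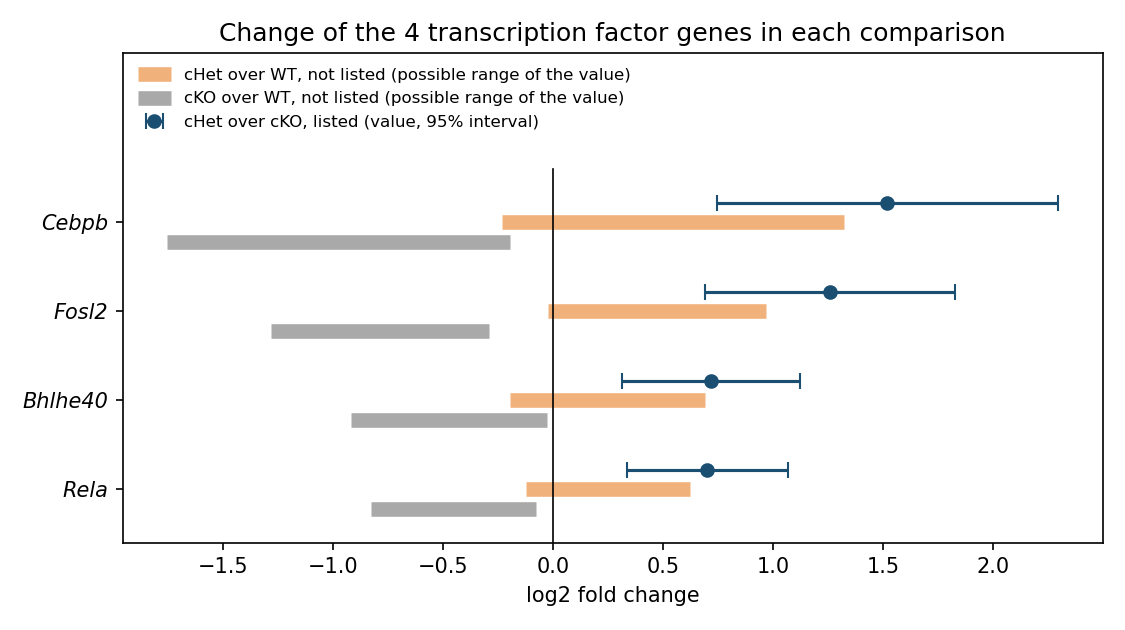
Log2 fold changes (x axis) of the 4 genes, with points and 95% intervals for cHet over cKO and bars for the range in which the fitted value can lie where the gene was not listed. The points lie between 0.70 and 1.52, and the bars for cHet over WT span 0. The bars for cKO over WT lie under 0 because they are computed from the same cHet over cKO values that chose the genes.

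Promoters were examined for 3 of the 4 genes, in windows of 300 bases from RefSeq (GRCm38.p6) that run from 250 bases before the gene start to 50 after it. The table used holds none for Bhlhe40. The sequences of Cebpb and Rela are shown because, of the 3 windows, only theirs hold bases before the first exon annotated in GENCODE. All 3 genes were higher in the same comparison, and the Fosl2 window holds the same pair of motifs. Only bases before the first exon annotated in GENCODE are printed, 5′ to 3′ on the plus strand. They are chr2:167688665-167688914 for Cebpb and chr19:5637291-5637482 for Rela. Capitals mark GC boxes (GGGCGG, the site of Sp1-type factors) and GACCC, a core that ZBTB7A is known to bind, on either strand.
Cebpb: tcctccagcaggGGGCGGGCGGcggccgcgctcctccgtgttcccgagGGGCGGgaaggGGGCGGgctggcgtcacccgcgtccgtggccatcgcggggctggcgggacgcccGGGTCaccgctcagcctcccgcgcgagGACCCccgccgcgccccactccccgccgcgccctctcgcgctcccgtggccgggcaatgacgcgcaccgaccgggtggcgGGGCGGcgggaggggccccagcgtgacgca
Rela: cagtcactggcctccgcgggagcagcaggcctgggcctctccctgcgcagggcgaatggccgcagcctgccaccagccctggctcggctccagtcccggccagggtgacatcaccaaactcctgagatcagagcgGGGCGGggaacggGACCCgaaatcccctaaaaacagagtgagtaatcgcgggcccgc

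Over the whole windows, Cebpb held 5 GC boxes, of which a pair overlaps, Rela 2 and Fosl2 1. A GC box was present in 35.6% of 32817 promoters of the same length. The core GACCC occurred 2 times in Cebpb, 2 times in Rela and 1 time in Fosl2, and it was present in 43.9% of all promoters, so it is a common motif. GC content was 80.7% for Cebpb, higher than in 99.2% of promoters, 71.3% for Rela and 64.7% for Fosl2. The Fosl2 window lies downstream of the first exon start in GENCODE and is not printed. It held the only matches to the NF-kB consensus, which overlap each other. Counted from the RefSeq start, GGGAGTCCCC runs from base -182 to -173 on the gene strand. The match on the other strand spans -181 to -172, where the gene strand reads GGAGTCCCCC. That consensus was found in 4.50% of all promoters. In Cebpb the letters of the TATA box (TATAAA) were matched only after the gene start, from base 22 of the annotated transcript. A match at any position of the window and on either strand was present in 13.6% of promoters. None of the 3 windows held the AP-1 site TGANTCA (7.81% of promoters), the cyclic AMP element TGACGTCA (1.79%), the C/EBP site TTGCNNAA (10.8%), the E-box CACGTG (7.15%), or ACGTG, the core of the hypoxia element, which the E-box contains (19.6%). The serum response element, in 1.63% of promoters, was also not found. A match of letters is a description and does not show binding.

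**Figure D3:**
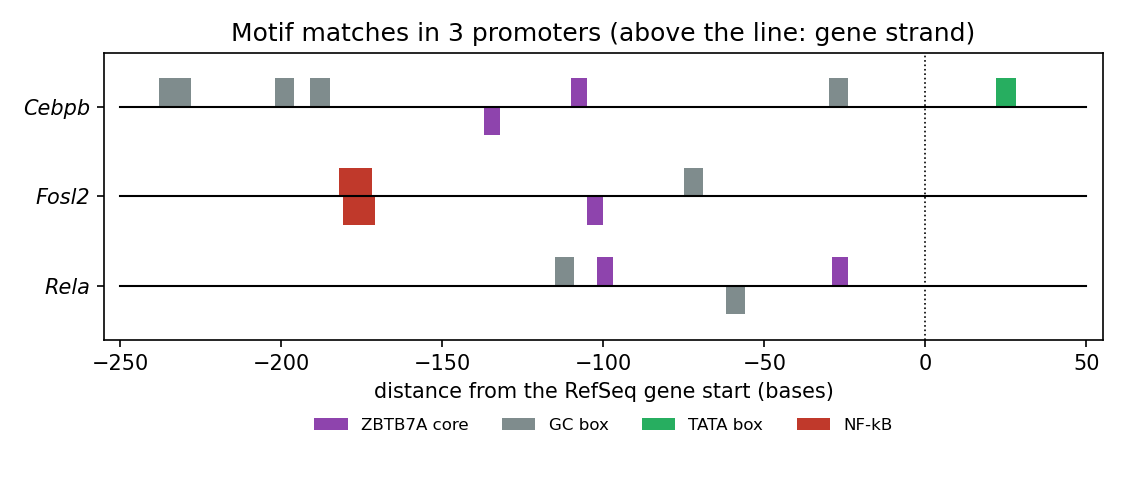
Positions of motif matches in the promoter windows of Cebpb, Fosl2 and Rela, in bases from the RefSeq gene start (x axis), with boxes above a line on the gene strand and boxes under it on the other strand. Cebpb shows 5 GC boxes, all on the gene strand, all 3 windows hold the core GACCC, and the NF-kB matches stand in Fosl2 alone.

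Relatives and pathway partners of the 4 genes are given by family. The background is 7.26% of all tested genes listed in cHet against cKO, 1.6% in cHet against WT and 0.0148% in cKO against WT. The AP-1, C/EBP, NF-kB subunit and clock lists each hold 1 of the 4 genes, so that 1 listed gene was fixed by the choice of genes. Apart from it, each of these lists held 0 listed genes in cHet against cKO. The remaining genes of a list of this size would give about 1 listed gene or none at that rate. The counts therefore show nothing particular to a family. Of 17 AP-1 and related leucine zipper genes Fosl2 was the only one listed in any table, and neither its partners Jun, Junb and Jund nor Fos and Fosb were. Of 6 C/EBP family genes Cebpb alone was listed, without Cebpa, Cebpd or Cebpg. Of 5 NF-kB subunits Rela alone was listed, and Nfkb1, whose product pairs with that of Rela, was not. None of 10 NF-kB inhibitors was listed, among them Nfkbia and Tnfaip3, which NF-kB itself is known to induce. The 14 kinases and adaptors that activate NF-kB and the 15 cytokine and receptor genes also had no row in any table. Bhlhe40 was the single gene listed among 17 clock genes, without its paralogue Bhlhe41 or its known targets Per1 and Dbp.

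Lists of genes that respond to signals held at most 1 listed gene each. None of 28 immediate early genes, such as Egr1, Arc, Nr4a1 and Ier2, and none of 18 hypoxia genes, such as Vegfa, Slc2a1 and Egln3, was listed in any comparison. Vcam1, an adhesion molecule of activated endothelium, was the only one of 11 inflammatory target genes, at 0.47 (SE 0.16) in the authors' deposited table for cHet against cKO. Stat5b, a signal transducer of cytokine and growth hormone receptors, was the only one of 11 JAK-STAT genes, at 0.46 (SE 0.15) in the authors' deposited table for the same comparison. Dusp7, a phosphatase that acts on ERK, was the only one of 20 ERK pathway genes. The authors' deposited table put it at 0.83 over WT and at 0.72 over cKO in cHet, each with an SE of 0.17. Slc7a11, a cystine transporter induced by the factor ATF4, was the only one of 14 stress response genes, with -1.12 (SE 0.31) against WT and -1.07 (SE 0.31) against cKO in the authors' deposited table. Over the 13 lists, 4 of the 176 genes other than Cebpb, Fosl2, Rela and Bhlhe40 were listed in cHet against cKO, or 2.27%, with 3 higher and 1 lower, beside 7.26% of all tested genes. In cHet against WT 2 were listed and in cKO against WT none. How many of the 176 entered the authors' adjustment is unknown, so a gene without a row may have been too low to test, and the 2 shares have different denominators.

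**Figure D4:**
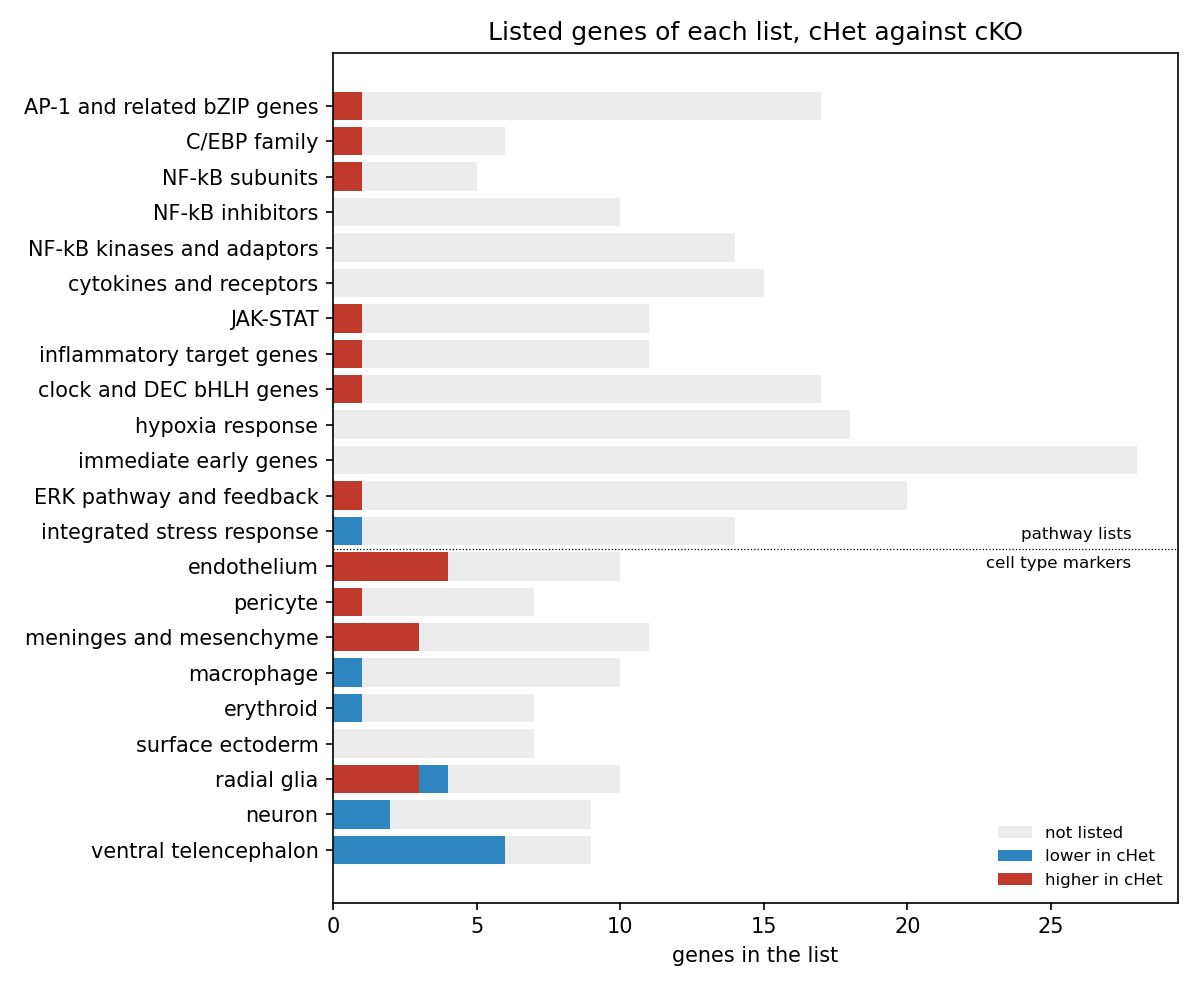
Number of genes (x axis) in each pathway list and each set of cell type markers, split into those listed as higher or lower in cHet than in cKO and those not listed. In the lists of the AP-1, C/EBP, NF-kB subunit and clock genes the single higher gene is Fosl2, Cebpb, Rela or Bhlhe40, and the bars of 28 immediate early genes and 18 hypoxia genes hold no listed gene.

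Some markers of other cell types were listed in the same comparison as the 4 genes, where 7.26% of all tested genes were. By direction, 417 genes were listed as higher in cHet, or 3.12% of those tested, and 554 as lower. Of 10 endothelial markers 4 were higher in cHet than in cKO and none lower, among them, in the authors' deposited table, Tie1 at 0.84 (SE 0.28) and the cadherin gene Cdh5 at 1.11 (SE 0.30). Of 7 pericyte markers 1 was higher, Pdgfrb at 0.69 (SE 0.18) in the authors' deposited table. Of 11 markers of meninges and mesenchyme 3 were higher, of which the authors' deposited table gave Lum 0.73 (SE 0.25) and Col3a1 0.97 (SE 0.26). None of these endothelial, pericyte and mesenchymal markers was listed in cHet against WT or in cKO against WT, as was the case for the 4 transcription factor genes. The same held for 320 of the 417 genes higher in cHet than in cKO, so sharing it does not link the 4 genes to these markers. Of 10 macrophage and 7 erythroid markers 1 each was listed, both lower in cHet, with Pf4 at -1.11 (SE 0.29) and Hbb-y at -0.74 (SE 0.24) in the authors' deposited table. None of 7 surface ectoderm markers was listed. Of 10 radial glia markers 3 were higher and 1 lower, 2 of 9 neuronal markers were lower, and so were 6 of 9 ventral telencephalic markers. The higher radial glia markers included Emx1, the locus that carries Cre in every embryo. The authors' deposited values for Emx1 were 0.42 (SE 0.12) in cHet against cKO and 0.54 (SE 0.12) in cHet against WT. The lower radial glia marker was Fabp7, at -1.05 (SE 0.20) in cHet against cKO. Of these marker sets the ventral one had the largest changes, with a median log2 change over the listed markers of -4.67, and Gsx2, a regulator of ventral progenitors, at -5.55 (SE 1.51) by the authors' deposited table. The same numbers of radial glia, neuronal and ventral markers were also listed in cHet against WT, with a median of -5.01 for the ventral ones. The ventral genes were not all the same, since Dlx6 and Gad1 were listed only against WT and Dlx5 and Sp9 only against cKO. The ventral medians therefore cover different genes. Summed levels of these markers per library, and which of them were at 0, were not analysed here, and their part in the changes of Cebpb, Fosl2, Rela and Bhlhe40 was not tested. In whole cortex, more cells of a type and more RNA per cell cannot be told apart.

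The genes most like each of the 4 were sought among 774 others listed in cHet against cKO alone, by the distance between log2 fold changes in that 1 comparison. For Cebpb they were Col15a1, a collagen of vascular and other basement membranes, at 1.41 (SE 0.27), Enpp3 at 1.32 (SE 0.45) and Tbx15, a T-box transcription factor of mesenchyme, at 1.23 (SE 0.40) in the authors' deposited table. For Fosl2 they were Tbx15 and Enpp3 again, and Robo4, a receptor of endothelium, at 1.16 (SE 0.34) in the authors' deposited table. Rela was nearest to Spata5l1 at 0.71 (SE 0.20), Pdgfrb and Bgn, a small proteoglycan of connective tissue, at 0.72 (SE 0.20) in the authors' deposited table. Bhlhe40 was nearest to Bgn, Spata5l1 and Pnpla2, a triglyceride lipase that the authors' deposited table gave as 0.72 (SE 0.23). Likeness in 1 comparison is weak, since many genes share a value near 0.7 within their error.

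The 4 genes lie on 4 chromosomes. The listed gene nearest to Rela was Map3k11, 40.6 kb away, which encodes a kinase upstream of JNK, with 0.54 (SE 0.19) and an adjusted p of 0.0498 from DESeq2 in the authors' deposited table. 4 protein-coding genes lie nearer to Rela and were not listed. The nearest listed gene was 956 kb away for Fosl2 (Gtf3c2), 1861 kb for Bhlhe40 (Crbn) and 1917 kb for Cebpb (Eya2). Crbn was lower in cHet (-0.54, SE 0.16, by the authors' deposited table), whereas Gtf3c2 and Eya2 were higher, at 0.49 (SE 0.16) and 0.65 (SE 0.21) in the authors' deposited table. Between 6 and 33 protein-coding genes closer to these 3 factors were not listed.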

How the data were processed

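The values are the authors' deposited tables of 3 comparisons between 9 libraries. Per the submitters' processing notes, cutadapt, featureCounts, DESeq2 and mm10 were used, with no versions in the sources used here. Per the file headers, each deposited row holds a log fold change with its SE, read here as log2 because the authors' DESeq2 reports that base, a statistic (a score equal to the fold change over its SE in every row) and an adjusted p-value under 0.05. Directions follow the names the authors gave the comparisons, and matched the direction word of each row. The labels name each library as a separate animal. Counts per library were not analysed here, so depth is unknown, the planned count tests were not run, and precision rests on the deposited SE.

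Intervals are 95% normal intervals from the SE. The number of genes tested was recovered by inverting the Benjamini-Hochberg adjustment, which rebuilt every deposited adjusted p-value. Ranges for unlisted genes, an addition after seeing the data, assume that 1 fit by the authors gave all 3 tables and that the gene entered each adjustment. The planned implied cKO value applied to no gene, since none of the 4 was in both cHet tables. All 971 identifiers of cHet against cKO, and all 248 and 4 of the other tables, matched GENCODE M21 (GRCm38, the mm10 assembly). GC content was that of each gene's longest transcript, and transcripts were compared with BLAST 2.17.0. Motifs were searched on both strands, the NF-kB consensus and the serum response element in their usual degenerate forms. The functions were tested on simulated data. Tables were handled with pandas 2.3.3 and NumPy 2.4.6 in Python 3.11.15, normal quantiles came from SciPy 1.17.1, and plots from matplotlib 3.10.9.

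The members, lists and tests were chosen with earlier results of these data known. Named genes were the 4 members, every listed gene of 13 pathway lists, the 3 genes most alike to each member and the listed gene nearest to it on its chromosome. Markers came from 9 fixed cell type lists, of which examples are given. Alternatives were a stricter adjusted p, minimum fold changes, a Bonferroni adjustment and a shorter promoter window.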

Additional observations from a re-analysis of the deposited data

How the results depend on the processing

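All 4 genes kept an absolute log2 change of at least 0.5 in cHet against cKO. With a minimum of 1, 2 were left, Cebpb and Fosl2. At an adjusted p under 0.01 only 1 was left, Fosl2, and under a Bonferroni adjustment 0 were left. The settings only shorten the tables, so they cannot list any of the 4 in the other comparisons. At an adjusted p under 0.01, the lists of C/EBP, NF-kB subunit, JAK-STAT, inflammatory target and clock genes and the pericyte, mesenchyme, macrophage and erythroid markers had 0 listed genes in cHet against cKO, and the stress response list 0 in both cHet comparisons. Endothelial markers then had 1 left, radial glia markers 2 in each cHet comparison and ventral markers 1 in each. With a minimum absolute log2 change of 0.5, the JAK-STAT and inflammatory lists had 0 listed genes and radial glia markers 1 in cHet against cKO. That 1 marker was Fabp7, which was lower in cHet, so none of the higher radial glia markers was left. Without the bases after the gene start, Cebpb held 0 matches to the TATA box letters, and the other 7 motif counts kept their values. The lowest or highest ratio of SEs changed the sign of no range limit.

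No paired analysis was possible because the tables hold comparisons and no values per library, and leaving out single replicates was not run for the same reason.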
